A study of Mus musculus with 8 samples.

Results

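The comparison described here is between mouse esophageal organoids given BMP4 together with an inhibitor of the TGFb receptors and organoids given that inhibitor without BMP4. It uses 4 of the 8 bulk RNA-seq libraries of the study, 2 per group, and was read across every gene at 1 CPM, the counts-per-million unit that sets a gene's reads against its library's total, or more in 2 or more of the 8 libraries. That filter kept 16180 of the 52636 genes in the deposited table. The groups and the filter were set without regard to group differences, but a gene could pass through the 2 libraries of 1 group alone. Krt24 and Slurp1, described below, passed through the BMP4 + inhibitor libraries alone. Ccl20 and Gstp3, also described below, passed through the inhibitor libraries alone. Each of these genes was thus tested only because of its level in the group where it was high.

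Esophageal epithelial cells from wild-type mice were embedded in Matrigel and kept in KSFM medium, a serum-free keratinocyte medium, for 13 days, with the medium changed every 2 days. Factors were then given for 72 h and replaced each 24 h. The BMP4 + inhibitor organoids received 20 ng/ml BMP4 and 500 nM A8301, a small molecule that blocks the kinases of the TGFb, activin and nodal type I receptors. The inhibitor organoids received 500 nM A8301 and are the study's control, so untreated organoids do not enter the comparison and both groups carry the inhibitor. The TGFb1 + BMP4 organoids received 20 ng/ml BMP4 and 1 ng/ml TGFb1, and the TGFb1 organoids received 1 ng/ml TGFb1. The labels list no inhibitor for these last groups, so BMP4 with TGFb1 differs from BMP4 with inhibitor in both respects. Nothing in the labels says whether replicates came from separate mice or cultures, so p-values measure the spread between these libraries, which may be technical.

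Bone morphogenetic proteins bind type I receptors of the ALK2, ALK3 and ALK6 kind together with type II receptors, and these phosphorylate SMAD1, SMAD5 and SMAD9. The SMADs join SMAD4, enter the nucleus and act on genes such as the Id family, which encode inhibitors of basic helix-loop-helix transcription factors. TGFb ligands use another type I receptor, ALK5, and SMAD2 and SMAD3. In the adult esophagus, BMP signalling is known from the squamous epithelium, where antagonists restrain it in basal cells, and from reflux disease and Barrett metaplasia.

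SMAD complexes of the BMP branch are known to bind GC-rich elements such as GGCGCC, and many SMADs bind the short element GTCT or its reverse complement AGAC. The promoters below belong to Smad6 and Id4, textbook BMP targets that rose here. They were picked by hand among the windows found and both hold a marked element, so they are examples and do not represent the other windows. Each runs 250 bases before to 10 bases after the RefSeq start site (build GRCm38.p6), 5′ to 3′ on the gene's strand, with GGCGCC and also GTCT or AGAC in capitals. The Smad6 window is chr9:64022050-64022309 on the minus strand and the Id4 window is chr13:48260866-48261125 on the plus strand.
Smad6: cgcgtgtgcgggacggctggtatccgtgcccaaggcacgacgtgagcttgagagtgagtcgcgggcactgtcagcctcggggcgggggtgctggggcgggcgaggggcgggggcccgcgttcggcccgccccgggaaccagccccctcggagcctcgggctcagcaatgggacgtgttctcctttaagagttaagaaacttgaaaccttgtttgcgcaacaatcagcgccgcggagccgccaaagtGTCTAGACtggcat
Id4: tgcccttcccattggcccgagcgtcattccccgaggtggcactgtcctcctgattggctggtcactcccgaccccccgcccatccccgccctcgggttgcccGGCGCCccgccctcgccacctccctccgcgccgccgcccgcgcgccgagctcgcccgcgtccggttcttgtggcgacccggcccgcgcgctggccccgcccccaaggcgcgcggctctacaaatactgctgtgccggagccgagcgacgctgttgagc
The Smad6 window holds GTCT and AGAC joined as the palindrome GTCTAGAC next to the start site, and the Id4 window holds 1 GGCGCC. Of all 32851 mouse windows of this length, searched on both strands, 0.177% held GTCTAGAC, 9.96% held GGCGCC and 84.0% held GTCT or AGAC. Over the 10945 tested genes with a window, 1 window each, the shares were 0.21%, 17.1% and 82.3%. A window was found for 8 of the 12 BMP target genes called higher, and of those 3 held GGCGCC, 6 held GTCT or AGAC and 1 held GTCTAGAC. Of the 13 BMP target genes tested that had a window, called or not, 5 held GGCGCC. A match describes letters in a window and not a binding site.

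Across all genes tested, 889 were higher with BMP4 (5.49%) and 471 were lower (2.91%), together 8.41%, at an adjusted p below 0.05. Counts of called members of a gene list are to be read beside these shares. The test was limma on log2(CPM + 1) over all 8 libraries, two-sided, with Benjamini-Hochberg adjustment over all 16180 genes. Fold changes are on that log2(CPM + 1) scale, which understates the change of low genes, and each ± is a standard error from the fit. The median log2 fold change over all genes was 0.02. Among the called genes, 197 rose by 2 or more and 65 fell by 2 or more on the log2 scale. With the replicate number as a block, 1909 genes were higher (11.8%) and 1593 were lower (9.85%), and all 1360 calls were kept. Every group holds each replicate number, so the block could not change the direction of a fold change.

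The calls rest on 2 libraries a side. When each of the 4 libraries was left out in turn, 153 of the 1360 calls passed every time, 119 higher and 34 lower. Leaving out BMP4 + inhibitor replicate 2 ended 187 calls, while leaving out BMP4 + inhibitor replicate 1, inhibitor replicate 1 or inhibitor replicate 2 ended 1034, 1095 and 1175. Below, a call that "held" passed in all 4 of these refits. For a call that did not hold, the adjusted p over the refits that ended it is given as a range, and unless stated these are the refits without BMP4 + inhibitor replicate 1, inhibitor replicate 1 or inhibitor replicate 2. For a list, the range of its count over the 4 refits is given where it is wide, and in those lists the highest count, alone or tied, came without BMP4 + inhibitor replicate 2. With the 2 compared groups alone 42 of the 142 named genes called lost their call, and without the filter on low values 50 did. None of the 48 named calls that held was among them. Of the named genes described below, the compared groups alone ended the calls of Id4, Bmpr1a, Pmepa1, Krt8, Krt13, Maf, Tgm6, Dsc3, Cldn4, Gja1, Dll1, Pfkfb3 and Ngfr (adjusted p = 0.0501 to 0.121). Leaving out the filter ended them too except for Pmepa1 and Pfkfb3, and also those of Lrat, Prelp, Bmp1, Hey1, Car9 and Map2 (adjusted p = 0.0511 to 0.111). CPM values are given for replicate 1 and then replicate 2 of each group.

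**Figure D1:**
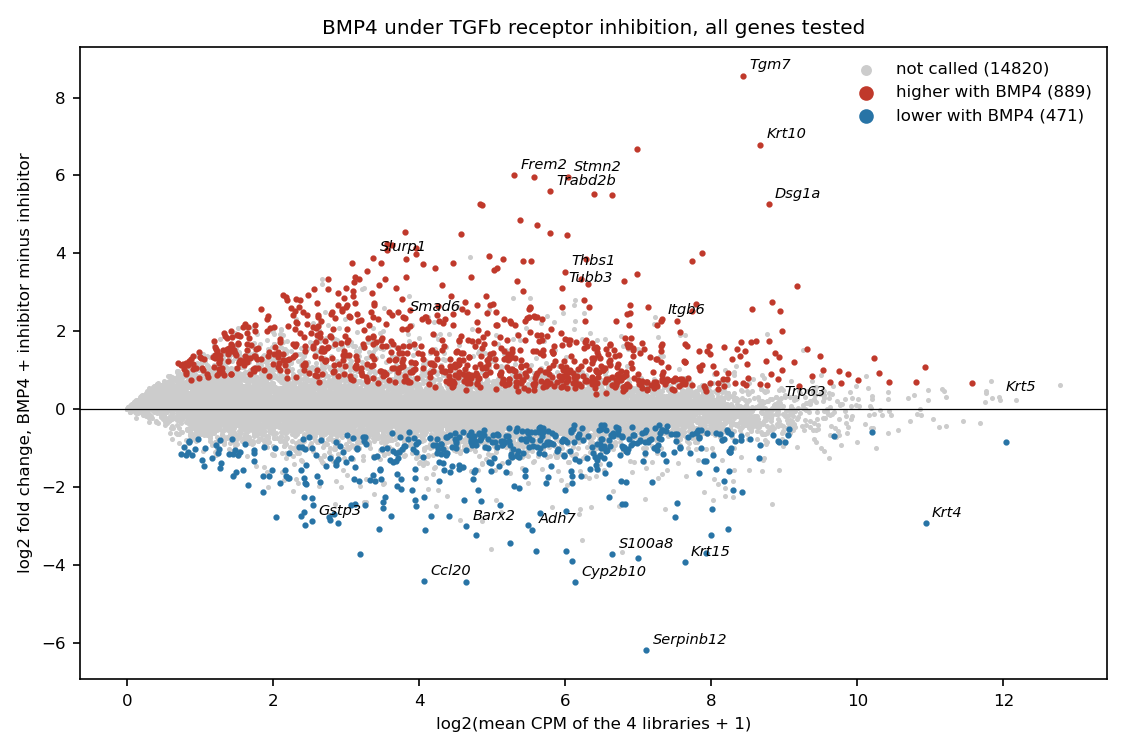
Each point is 1 of the genes tested, by its mean level in the 4 compared libraries (log2 of CPM + 1) and its log2 fold change, BMP4 + inhibitor minus inhibitor; red points are the 889 genes called higher with BMP4 and blue points the 471 called lower. Tgm7 stands at 8.56 and Serpinb12 at -6.20, while the basal genes Krt5 and Trp63 lie at 0.31 and 0.18 and were not called.

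The genes that mark esophageal epithelium were present in every library. Krt5, the keratin of basal squamous cells, stood at 4500 and 4234 CPM in BMP4 + inhibitor organoids and at 3642 and 3399 CPM in inhibitor organoids. Trp63, the transcription factor that maintains squamous stem cells, stood at 533 and 492 CPM with BMP4 and at 437 and 468 CPM without it. Neither was called, with log2 fold changes of 0.31 ± 0.19 and 0.18 ± 0.11 (adjusted p = 0.333 and 0.354). Of the 9 epithelial identity genes, Krt4 and Krt13 fell and the other 7 were not called. Their summed level was 14420 and 13530 CPM with BMP4 and 17870 and 15600 CPM without it.

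Markers of other cells were low but present in the 4 compared libraries. Fibroblast markers summed to 171 and 548.7 CPM in BMP4 + inhibitor organoids and to 66.21 and 165.4 CPM in inhibitor organoids. Skeletal muscle markers summed to 91.84 and 362.6 CPM with BMP4 and to 30.83 and 126.8 CPM without it. Both sums were highest in BMP4 + inhibitor replicate 2, and replicate 2 was above replicate 1 in each group. None of the 15 fibroblast and 17 skeletal muscle markers tested was called with limma, although 1 fibroblast marker was higher and 1 lower at an unadjusted p below 0.05. With the replicate block 8 of each list were higher and 1 fibroblast marker was lower. Endothelial markers summed to at most 53.37 CPM. Of 23 immune markers, 16 stayed under 1 CPM in the 4 libraries, among them Ptprc, the leukocyte common antigen CD45, at 0.05 CPM or less, and Ms4a1 and Cpa3 were at 0. Of the 10 immune markers tested with limma, S100a9 and Cd68 were lower and none was higher. At an unadjusted p below 0.05 in that fit 2 were higher, and with the replicate block 1 was. Cd68, a lysosomal protein abundant in macrophages, had 51.9 and 47.2 CPM with BMP4 against 131 and 106 CPM without it (-1.24 ± 0.20, adjusted p = 0.0172), and its call was lost in 3 of the 4 refits that each leave out 1 library (adjusted p = 0.0766 to 0.107). Kit had 16.3 and 4.95 CPM with BMP4 against 0.10 CPM in each inhibitor library and was not called. Csf1r, Cd14 and Itgam reached 17.8, 12.5 and 12.4 CPM at most and were not called. In bulk RNA, fewer cells of a type and less RNA per cell cannot be told apart.

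BMP target and feedback genes rose together. Of 25 tested, 12 were higher and none was lower, with a median log2 fold change of 1.79. With replicate as a block 18 were higher, and with 1 library left out between 5 and 14 were. Smad6, an inhibitory SMAD that blocks BMP receptors and SMAD1, had 27.8 and 16.4 CPM in BMP4 + inhibitor organoids, against 3.1 and 3.65 CPM in inhibitor organoids. The groups did not overlap, which was also so, with BMP4 higher, for 30.9% of all genes tested. The log2 fold change of Smad6 was 2.36 ± 0.25 (adjusted p = 0.00503), and the call held. Bambi, a pseudoreceptor without a kinase that dampens BMP and TGFb signalling, had 41.1 and 25.6 CPM with BMP4 against 1.60 and 1.80 CPM without it (3.63 ± 0.23, adjusted p = 0.00183, held). Nog, which encodes the secreted BMP antagonist noggin, had 34.4 and 16.7 CPM against 0.70 and 0.80 CPM (3.84 ± 0.34, adjusted p = 0.00357, held). Atoh8, a basic helix-loop-helix factor known as a BMP target in endothelium and liver, had 8.79 and 7.30 CPM against 0.15 and 0.45 CPM (2.80 ± 0.25, adjusted p = 0.00357, held). Smad7, the inhibitory SMAD of both branches, had 76.5 and 61.2 CPM with BMP4 against 26.9 and 20.6 CPM without it (1.5 ± 0.21, adjusted p = 0.0109). Its call was lost without BMP4 + inhibitor replicate 1 or inhibitor replicate 2 (adjusted p = 0.0655 and 0.0832). The rest of the 12 were Hey1, described below, and the homeobox genes Msx2, Dlx1 and Dlx2, which act in skeletal and skin appendage development and were picked after their values were seen. Msx2 had 35.9 and 28.2 CPM with BMP4 against 6.65 and 5.55 CPM without it (2.21 ± 0.38, adjusted p = 0.0218, lost at 0.104 to 0.141).

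The 4 Id genes were all higher in both BMP4 + inhibitor libraries than in both inhibitor libraries, as were 4997 of all 16180 genes tested (30.9%). Of these 4 Id genes, 3 were called. Id2 had 66.3 and 44.2 CPM with BMP4 against 9.84 and 7.95 CPM without it, a log2 fold change of 2.48 ± 0.20 (adjusted p = 0.00247, held). Id3 had 288 and 243 CPM against 41.8 and 66.3 CPM (2.31 ± 0.33, adjusted p = 0.0122, lost at 0.0524 to 0.0789). Id4 had 19.0 and 11.4 CPM against 4.65 and 2.35 CPM (1.86 ± 0.33, adjusted p = 0.0234, lost at 0.0535 to 0.129). Id1, the Id gene most used as a readout of BMP signalling, had 231 and 219 CPM with BMP4 against 88.4 and 85.3 CPM without it, and its log2 fold change of 1.36 ± 0.33 did not pass over all 8 libraries (adjusted p = 0.0562), but did with the replicate block (adjusted p = 0.0307) and with the 2 compared groups alone (0.0179). Id4 went the other way in that fit, where its call was lost (adjusted p = 0.0719).

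**Figure D2:**
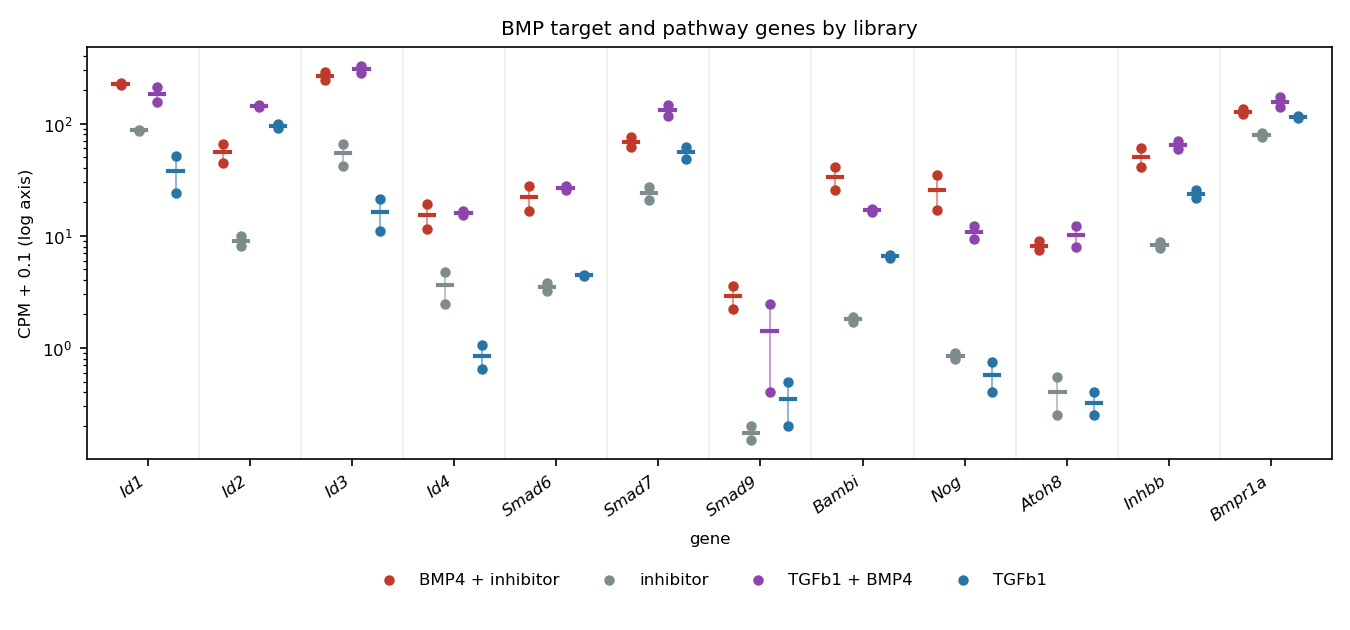
CPM + 0.1 on a log axis for BMP target and pathway genes; points are the 2 libraries of a group and short bars their mean, with BMP4 + inhibitor left of inhibitor and TGFb1 + BMP4 left of TGFb1. For every gene shown, both BMP4 + inhibitor libraries lie above both inhibitor libraries, as they do for 30.9% of all genes tested. Bmpr1a differs least, with 135 and 121 CPM against 75.3 and 81.9 CPM.

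Of 17 receptors and SMADs of the pathway tested, 1 was higher and none was lower, 5.88% against 8.41% called over all genes. The median was -0.03, and with the replicate block 2 were higher and 1 lower. The 1 was Bmpr1a, the type I receptor ALK3, at 135 and 121 CPM with BMP4 against 75.3 and 81.9 CPM without it (0.70 ± 0.13, adjusted p = 0.0243, lost at 0.112 to 0.131). Bmpr2, the type II receptor, had 203 and 167 CPM against 127 and 97.4 CPM and passed with the replicate block only (0.72 ± 0.20, adjusted p = 0.0735 without the block and 0.0434 with it). Acvr1, the receptor ALK2, had 40.6 and 44.3 CPM with BMP4 against 35.8 and 40.7 CPM without it. Smad1 had 41.1 and 39.6 CPM against 44.5 and 47.9 CPM, and Smad5 had 67.4 and 68.1 CPM against 77.1 and 78.7 CPM. These 3 were not called (adjusted p = 0.488, 0.395 and 0.195). Bmpr1b, the receptor ALK6, reached 1.40 CPM at most in the 4 libraries. Smad9, the third SMAD of the branch, had 3.45 and 2.10 CPM with BMP4 against 0.05 and 0.10 CPM without it, both under the 0.15 CPM that 3 deposited units allow. It was not called (adjusted p = 0.0566), but passed with the replicate block (adjusted p = 0.026), with a pseudocount of 0.1 (0.0446), under median-of-ratios scaling (0.0458) and with the 2 compared groups alone (0.0307).

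Among 25 BMP and activin ligands and secreted antagonists, 5 were higher and none was lower, and with the replicate block 7 were higher and 2 lower. Inhbb, the beta B chain of activins and inhibins, had 60.2 and 41.0 CPM in BMP4 + inhibitor organoids against 8.70 and 7.65 CPM in inhibitor organoids (2.47 ± 0.21, adjusted p = 0.00282, held). Sostdc1, a secreted antagonist of BMP and Wnt ligands, had 393 and 401 CPM against 33.6 and 22.7 CPM (3.80 ± 0.50, adjusted p = 0.00964, lost at 0.057 to 0.0844). Bmp1, a protease that cuts procollagens and chordin rather than a BMP ligand, had 102 and 64.6 CPM against 29.6 and 28.4 CPM (1.45 ± 0.24, adjusted p = 0.0197, lost at 0.0753 to 0.128). Nog, described above, and Twsg1 made up the 5. With 1 library left out, 2 or 5 of the list were higher.

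Genes known as TGFb targets rose as well, in organoids whose TGFb receptors were inhibited in both groups. Of 28 tested, 12 were higher and none was lower, with a median of 1.30, and 6 to 12 were higher with 1 library left out. With the replicate block 16 were higher and none was lower. Itgb6, the integrin chain that with alpha v activates latent TGFb, had 279 and 246 CPM with BMP4 against 54.2 and 52.5 CPM without it (2.27 ± 0.13, adjusted p = 0.00136, held). Tgfbi, a secreted matrix protein named for its induction by TGFb, had 469 and 299 CPM against 62.0 and 52.4 CPM (2.70 ± 0.21, adjusted p = 0.00219, held). Skil, a SMAD corepressor, had 163 and 143 CPM with BMP4 against 61.1 and 54.0 CPM without it (1.39 ± 0.13, adjusted p = 0.00357, held). Cdkn2b, which encodes the CDK4 and CDK6 inhibitor p15, had 63.0 and 44.7 CPM against 10.5 and 11.6 CPM (2.16 ± 0.21, adjusted p = 0.0045, held). Pmepa1, a feedback inhibitor of TGFb signalling, had 50.7 and 29.0 CPM against 11.5 and 9.99 CPM (1.75 ± 0.24, adjusted p = 0.0111), and lost its call without either inhibitor library (adjusted p = 0.0655 and 0.0941).

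Many of these TGFb target genes were lower than in TGFb1 organoids. Of the 28, 16 were lower in BMP4 + inhibitor organoids than in TGFb1 organoids and none was higher, with a median log2 difference of -1.18. Over all genes, that difference was called higher for 11.4% and lower for 12%. Fibroblast markers summed to 1467 and 5096 CPM in TGFb1 organoids against 171 and 548.7 CPM in BMP4 + inhibitor organoids. Their part in these differences was not tested. Tgfbi had 469 and 299 CPM in BMP4 + inhibitor organoids against 1337 and 1258 CPM in TGFb1 organoids (log2 difference -1.79 ± 0.21, adjusted p = 0.00254). Pmepa1 had 50.7 and 29.0 CPM against 427 and 394 CPM (-3.38 ± 0.24, adjusted p = 0.000588). Itgb6 had 279 and 246 CPM with BMP4 + inhibitor against 318 and 264 CPM with TGFb1, a difference of -0.15 ± 0.13 that was not called (adjusted p = 0.435). Of the 25 BMP target genes, 16 were higher in BMP4 + inhibitor organoids than in TGFb1 organoids and 2 were lower, with a median of 2.17. Id2 was one of the 2, at 66.3 and 44.2 CPM with BMP4 + inhibitor against 99.9 and 91.7 CPM with TGFb1 (-0.81 ± 0.20, adjusted p = 0.0301).

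Of 15 TGFb ligand, receptor and activator genes 5 were higher and none was lower. They were Itgb6, Itgb8, Thbs1, Tgfb1 and Tgfb2. With the replicate block 7 were higher and 1 lower. Itgb8, the partner of alpha v in another latent TGFb activator, had 22.7 and 20.0 CPM with BMP4 against 0.15 and 0.50 CPM without it (4.09 ± 0.28, adjusted p = 0.00218, held). Tgfb1 transcripts stood at 151 and 131 CPM in BMP4 + inhibitor organoids and at 57.6 and 75.0 CPM in inhibitor organoids (1.09 ± 0.15, adjusted p = 0.0109), and the call was lost without replicate 1 of either group (adjusted p = 0.0658 and 0.0567 for BMP4 + inhibitor and inhibitor). Tgfb2, outside the rule for named genes and picked after its values were seen, had 64.2 and 31.3 CPM against 11.2 and 10.5 CPM (1.95 ± 0.36, adjusted p = 0.026, lost at 0.0887 to 0.151). Thbs1, which encodes thrombospondin 1, an adhesive matrix protein that can activate latent TGFb, had 99.3 and 133 CPM with BMP4 against 5.60 and 14.2 CPM without it (3.53 ± 0.36, adjusted p = 0.00489, held). Its level in TGFb1 organoids was 466 and 498 CPM.

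Keratins changed in both directions: of 29 tested, 7 were higher and 7 were lower. With the replicate block 10 were higher and 8 lower, and with 1 library left out 4 to 7 were higher and 2 to 7 lower. Krt10, a keratin of suprabasal epidermis (chr11:99385254-99389364, minus strand, GENCODE M21 on GRCm38), had 957 and 649 CPM in BMP4 + inhibitor organoids against 11.2 and 3.15 CPM in inhibitor organoids. Its log2 fold change was 6.79 ± 0.53 (adjusted p = 0.00219) and the call held. Krt1, the usual partner of Krt10 in epidermis, was too low to be tested, at 0.849 and 0.80 CPM against 1.40 and 0.999 CPM. Krt24 had 6.25 and 3.95 CPM with BMP4 and was at 0 in both inhibitor libraries, so that it was at least 34.0-fold higher against a floor of 3 deposited units per library (adjusted p = 0.0027, held). Krt76, a suprabasal keratin of the palate and tongue, was outside the rule for named genes and picked after its values were seen. It had 115 and 56.3 CPM with BMP4 against 7.10 and 3.20 CPM without it (3.81 ± 0.41, adjusted p = 0.00539, held).

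Krt4, Krt13 and Krt15, keratins of the esophageal epithelium, fell, as did Krt23, which is on the list of columnar and Barrett type genes. Krt4, which with Krt13 forms the filaments of the suprabasal esophageal layers, had 545 and 361 CPM in BMP4 + inhibitor organoids against 4097 and 2824 CPM in inhibitor organoids (-2.94 ± 0.31, adjusted p = 0.00499, held). Krt13 had 2859 and 3091 CPM against 5853 and 4974 CPM (-0.86 ± 0.19, adjusted p = 0.0406). That call was lost in all 4 refits (adjusted p = 0.0641 to 0.205) and under median-of-ratios scaling (0.0587). Krt15, a keratin of basal progenitor cells, had 27.0 and 20.0 CPM with BMP4 against 389 and 355 CPM without it (-3.94 ± 0.16, adjusted p = 0.000727, held). Krt23 had 138 and 101 CPM against 501 and 511 CPM (-2.09 ± 0.30, adjusted p = 0.0123), lost without either inhibitor library (adjusted p = 0.0818 and 0.0956). Krt14, the basal partner of Krt5, had 4784 and 4204 CPM against 2643 and 2856 CPM, was not called over all 8 libraries (0.71 ± 0.20, adjusted p = 0.0775) and was called with the replicate block (adjusted p = 0.022).

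Among the keratins of simple epithelium Krt7, Krt8 and Krt20 rose, and Krt18 and Krt19 were not called. Krt7 had 189 and 79.8 CPM with BMP4 against 19.1 and 14.5 CPM without it (2.81 ± 0.39, adjusted p = 0.0109), lost without either inhibitor library (adjusted p = 0.0615 and 0.0941). Krt20, known from intestinal and gastric surface cells, had 21.6 and 15.7 CPM against 0.85 and 1.5 CPM (3.18 ± 0.22, adjusted p = 0.00218, held). Krt8 had 6.25 and 2.90 CPM against 1.25 and 0.899 CPM (1.36 ± 0.31, adjusted p = 0.0466, lost at 0.149 to 0.226, and 0.0549 under median-of-ratios scaling). Krt18, the partner of Krt8, had 4.75 CPM in each BMP4 + inhibitor library and 3.75 and 6.10 CPM in inhibitor organoids (adjusted p = 0.978). Krt19 had 25.3 and 10.6 CPM against 5.85 and 6.40 CPM and was not called (adjusted p = 0.0753), but passed with the replicate block (adjusted p = 0.0203). Of 16 columnar and Barrett type genes tested, 3 were higher and 1 was lower, and all 4 were keratins: Krt7, Krt8 and Krt20 higher, and Krt23, given above, lower. Sox9, a columnar transcription factor, had 19.2 and 20.9 CPM with BMP4 against 29.8 and 25.6 CPM without it and was not called (adjusted p = 0.282).

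**Figure D3:**
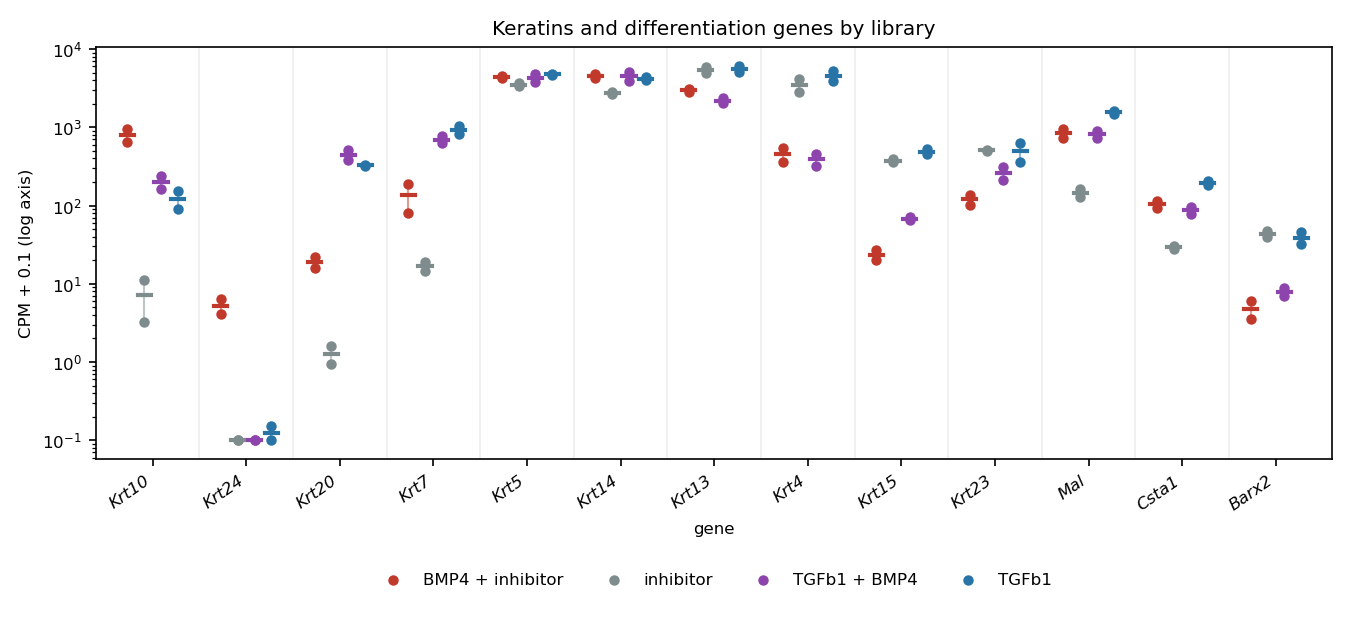
CPM + 0.1 on a log axis for keratins and esophageal differentiation genes, 2 libraries per group with a short bar at their mean, BMP4 + inhibitor left of inhibitor and TGFb1 + BMP4 left of TGFb1. Krt10 stands at 957 and 649 CPM with BMP4 and inhibitor and Krt15 at 27.0 and 20.0 CPM, while Krt5 lies between 3399 and 4844 CPM in all 8 libraries.

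The remaining genes of squamous differentiation did not move as one group. Of 37 esophageal differentiation genes tested, 3 were higher and 6 were lower, with a median of -0.26. With 1 library left out 2 or 3 were higher and 3 to 5 lower, and with the replicate block 5 were higher and 9 lower. Mal, a raft protein of the upper esophageal layers, had 944 and 729 CPM with BMP4 against 164 and 127 CPM without it (2.51 ± 0.20, adjusted p = 0.00219, held). Csta1, a cystatin protease inhibitor, had 114 and 92.2 CPM against 27.8 and 30.7 CPM (1.77 ± 0.16, adjusted p = 0.00357, held). Barx2, a homeobox transcription factor, had 3.45 and 5.85 CPM against 47.3 and 39.6 CPM (-3.0 ± 0.27, adjusted p = 0.00357, held). Tmprss11e, a membrane serine protease, had 43.4 and 43.3 CPM with BMP4 against 120 and 134 CPM without it (-1.53 ± 0.12, adjusted p = 0.00219, held).

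Epidermal differentiation genes were also divided, with 6 of 38 higher and 4 lower and a median of -0.45, and with the replicate block 8 higher and 10 lower. Over the 4 refits 1 to 4 were higher and 2 to 5 lower. Besides Krt10, Dsg1a rose, which encodes a desmosomal cadherin of upper squamous layers. It had 775 and 945 CPM in BMP4 + inhibitor organoids against 26.2 and 17.3 CPM in inhibitor organoids (5.26 ± 0.70, adjusted p = 0.0097, lost at 0.0572 to 0.0857). Serpinb12, a clade B serpin with the largest fall of all genes called (chr1:106934449-106957080, plus strand, same annotation), had 1.05 and 5.00 CPM with BMP4 against 360 and 182 CPM without it (-6.20 ± 0.67, adjusted p = 0.00539, held). Hrnr and Ivl, which encode the envelope proteins hornerin and involucrin, were outside the rule and picked after their values were seen. Hrnr had 197 and 202 CPM against 79.6 and 46.3 CPM (1.70 ± 0.31, adjusted p = 0.0262), a call lost in all 4 refits (adjusted p = 0.0526 to 0.135). Ivl had 24.7 and 9.84 CPM against 1.35 and 1.70 CPM (2.73 ± 0.53, adjusted p = 0.0295, lost at 0.135 to 0.147).

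The Lce, Sprr and S100 families of the epidermal differentiation complex fell more often than they rose, with 12 of 49 lower and 1 higher and a median of -0.54. Under the block 21 were lower and 6 higher, and with 1 library left out 3 to 10 were lower. S100a8 and S100a9, the chains of the calcium-binding protein calprotectin, both fell and both calls held. S100a8 had 9.59 and 15.8 CPM with BMP4 against 127 and 244 CPM without it (-3.73 ± 0.36, adjusted p = 0.00425). S100a9 had 38.0 and 57.9 CPM against 374 and 546 CPM (-3.24 ± 0.28, adjusted p = 0.00314). Most of the other falls were Sprr2 genes, small proline-rich envelope proteins. Sprr2i had 36.3 and 31.4 CPM against 481 and 424 CPM (-3.70 ± 0.49, adjusted p = 0.00963, lost at 0.0548 to 0.0786). The Sprr2 genes and the pseudogenes Sprr2c-ps and Sprr2j-ps are near-identical copies, so reads may have been split among them and single members are uncertain. S100a9 is also on the list of immune markers. With S100a9 included, that list summed to 147.5 and 141.4 CPM with BMP4 and to 531.1 and 680.7 CPM without it. Most of the sum without BMP4 came from S100a9 and from Cd68, the latter at 131 and 106 CPM. The fall of the sum therefore does not describe the immune markers as a group.

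Tgm7, a member of the transglutaminase family of protein cross-linking enzymes, had the largest rise of all genes called (chr2:121093565-121109795, minus strand). It had 810 and 573 CPM in BMP4 + inhibitor organoids against 1.25 and 0.45 CPM in inhibitor organoids, means of 692 ± 167 and 0.85 ± 0.565 CPM (SD, n = 2 each). The log2 fold change was 8.56 ± 0.35 (adjusted p = 0.000727) and the call held. Of the 8 transglutaminase genes tested, Tgm5 and Tgm6 were the others called. Tgm5, active in the upper epidermis, had 229 and 157 CPM with BMP4 against 42.5 and 27.8 CPM without it (2.43 ± 0.31, adjusted p = 0.00912), lost without BMP4 + inhibitor replicate 1 or inhibitor replicate 2 (adjusted p = 0.0548 and 0.073). Tgm6 had 33.8 and 24.9 CPM against 14.0 and 9.20 CPM (1.28 ± 0.26, adjusted p = 0.0335, lost at 0.0716 to 0.182, and 0.152 with a pseudocount of 0.1). None of the 8 was lower, and with 1 library left out 1 to 3 were higher.

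Desmosome and junction genes were higher or not called in the fit over all 8 libraries. Of 18 desmosomal genes 4 were higher, with 7 under the replicate block and 0 to 3 with 1 library left out. Of 32 claudins, partners and connexins 6 were higher, with 12 higher and 2 lower under the block and 2 higher under median-of-ratios scaling. Without BMP4 + inhibitor replicate 1, inhibitor replicate 1 or inhibitor replicate 2, none of those 32 was higher, and without BMP4 + inhibitor replicate 2, 9 were. Dsc3, the desmocollin of basal layers, had 1237 and 1331 CPM with BMP4 against 739 and 791 CPM without it (0.75 ± 0.14, adjusted p = 0.0263, lost in all 4 refits at 0.0545 to 0.135). Cldn4, a tight junction claudin, had 412 and 376 CPM against 236 and 254 CPM (0.68 ± 0.13, adjusted p = 0.0254, lost at 0.117 to 0.134, and 0.0587 under median-of-ratios scaling). Gja1, which encodes connexin 43, had 534 and 457 CPM against 290 and 341 CPM (0.65 ± 0.13, adjusted p = 0.0315, lost at 0.0921 to 0.154, and 0.0554 under that scaling).

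More genes that attach epithelium to its basement membrane rose than fell. Of 41 laminin, integrin, hemidesmosome and Fraser complex genes tested, 12 were higher and 2 were lower, with a median of 0.60. Over the 4 refits 4 to 11 were higher and 0 or 1 lower. Frem2, a component of the Fraser complex that anchors epidermis to dermis in the embryo (chr3:53513938-53657355, minus strand), had 95.6 and 57.4 CPM in BMP4 + inhibitor organoids against 0.30 and 0.05 CPM in inhibitor organoids (6.01 ± 0.45, adjusted p = 0.00219, held). Fras1, its partner in that complex, was outside the rule and picked after its values were seen. It had 99.6 and 50.2 CPM against 13.8 and 4.25 CPM (3.03 ± 0.59, adjusted p = 0.0299, lost at 0.0504 to 0.161). Npnt, which encodes nephronectin, a ligand of integrin alpha 8 beta 1, had 273 and 116 CPM with BMP4 against 4.15 and 2.10 CPM without it (5.49 ± 0.61, adjusted p = 0.00566), lost without inhibitor replicate 2 (adjusted p = 0.0601). Grip1, which encodes a scaffold protein that traffics Fraser complex proteins, was one of the 2 that were lower. It had 46.9 and 36.8 CPM against 103 and 78.1 CPM (-1.09 ± 0.20, adjusted p = 0.0264), and the call was lost in all 4 refits (adjusted p = 0.0565 to 0.134). Grip2, the related scaffold gene, rose, at 61.2 and 48.3 CPM with BMP4 against 0.30 and 0.60 CPM without it (5.26 ± 0.39, adjusted p = 0.00219, held).

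Matrix genes rose in smaller numbers. Of 33 collagen chains 6 were higher, of 48 matricellular and proteoglycan genes 6 were higher, and of 48 metalloproteases, ADAM, ADAMTS and TIMP genes 6 were higher. None of these was lower, and the shares called were 18.2%, 12.5% and 12.5%, against 8.41% over all genes. With replicate as a block these counts were 17, 31 and 16 higher and 1 lower in each, and with 1 library left out 2 to 4, 2 to 6 and 2 to 4 were higher. The fibroblast marker sum moved with these lists, at 171 and 548.7 CPM with BMP4 and 66.21 and 165.4 CPM without it, and its part in them was not tested. Col7a1, which encodes the anchoring fibril collagen of squamous basement membrane, had 429 and 293 CPM with BMP4 against 69.6 and 53.1 CPM without it (2.52 ± 0.24, adjusted p = 0.00425, held). Col4a5, a basement membrane collagen, had 58.4 and 35.5 CPM against 3.05 and 3.95 CPM (3.38 ± 0.24, adjusted p = 0.00219, held). Tnc, which encodes tenascin C, had 145 and 123 CPM against 8.39 and 17.4 CPM (3.35 ± 0.30, adjusted p = 0.00357, held). Prelp, a proteoglycan of connective tissue, had 64.4 and 121 CPM with BMP4 against 1.1 and 4.45 CPM without it (4.72 ± 0.79, adjusted p = 0.0197, lost at 0.0755 to 0.117).

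Wnt pathway genes were called higher only, 8 of 50, and 17 with the replicate block. Over the 4 refits 2 to 12 were higher. Lgr6, an R-spondin receptor known from squamous stem cells, had 159 and 27.1 CPM in BMP4 + inhibitor organoids against 0.05 and 0.10 CPM in inhibitor organoids (5.96 ± 0.74, adjusted p = 0.00821), lost without either inhibitor library (adjusted p = 0.0622 and 0.073). Wnt5a, a ligand of the non-canonical pathway, had 141 and 150 CPM against 62.5 and 66.5 CPM (1.16 ± 0.09, adjusted p = 0.00219, held). Wnt11, another such ligand, had 64.2 and 40.3 CPM against 7.00 and 5.05 CPM (2.90 ± 0.28, adjusted p = 0.00427, held). Axin2, the usual readout of beta-catenin signalling, had 9.54 and 12.9 CPM with BMP4 against 8.64 and 11 CPM without it and was not called (0.17 ± 0.44, adjusted p = 0.836). Trabd2b, a protease that cleaves Wnt ligands, had 113 and 102 CPM against 1.80 and 0.80 CPM (5.59 ± 0.43, adjusted p = 0.00219, held).

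In the other signalling families, each a small list, the share called is set beside the 8.41% over all genes. The shares were 9.52% of 21 Notch, 9.38% of 32 FGF and IGF, 11.8% of 17 EGF family and 16.7% of 12 Hedgehog genes. The first 2 were near the share over all genes. None was tested against it, so these shares do not show a response of the families. Among 21 Notch genes Hey1 was the only one higher and Dll1, a Notch ligand, the only one lower. Hey1, a target of Notch and BMP signalling, had 7.09 and 6.90 CPM with BMP4 against 0.10 and 0.20 CPM without it (2.80 ± 0.50, adjusted p = 0.0241, lost at 0.124 to 0.133). Dll1 had 15.2 and 21.2 CPM against 35.8 and 33.7 CPM (-0.92 ± 0.19, adjusted p = 0.0371, lost at 0.158 to 0.168). With the block, 6 Notch genes were higher and 3 lower. Hes1 had 81.0 and 64.2 CPM against 55.4 and 39.8 CPM and was called with the block only (adjusted p = 0.166 without it and 0.012 with it). Igfbp3, which binds insulin-like growth factors, had 576 and 303 CPM with BMP4 against 32.6 and 19.2 CPM without it (4.01 ± 0.37, adjusted p = 0.00357, held). Fgfr2, the receptor of keratinocyte growth factor, had 156 and 102 CPM against 44.3 and 39.6 CPM (1.57 ± 0.22, adjusted p = 0.0123), lost without either inhibitor library (adjusted p = 0.0716 and 0.1).

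S phase and mitosis genes were not called in either direction, 0 of 48 tested with limma, with a median of 0.06, while 2 were higher and 1 lower at an unadjusted p below 0.05. Under the block 1 was higher and 1 lower, and likewise without BMP4 + inhibitor replicate 2. Mki67, a marker of cycling cells, had 140 and 65.1 CPM with BMP4 against 76.4 and 44.4 CPM without it (0.70 ± 0.92, adjusted p = 0.670). Among 8 CDK inhibitor genes Cdkn2b was the only one called, and Cdkn1a, which encodes p21, had 692 and 709 CPM against 642 and 578 CPM (0.20 ± 0.16, adjusted p = 0.460).

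Transcription factors of squamous epithelium were divided, with 5 of 41 higher and 5 lower, and 0 to 4 higher and 1 to 4 lower with 1 library left out. With the replicate block 8 were higher and 7 lower. Tbx1, a T-box factor of pharyngeal development, had 108 and 48.7 CPM with BMP4 against 10.6 and 11.6 CPM without it (2.60 ± 0.34, adjusted p = 0.0097), lost without either inhibitor library (adjusted p = 0.073 and 0.0786). Maf, a bZIP factor of epidermal differentiation, had 50.2 and 40.8 CPM against 22.5 and 14.3 CPM (1.28 ± 0.22, adjusted p = 0.0223), lost without BMP4 + inhibitor replicate 1 or inhibitor replicate 2 (adjusted p = 0.127 and 0.0996). Sox15 had 5.70 and 4.65 CPM against 16.8 and 20.5 CPM (-1.67 ± 0.24, adjusted p = 0.0119, lost at 0.0524 to 0.0971). Sox2, Pax9, Pitx1 and Klf4, which set foregut and squamous identity, were not called (adjusted p = 0.145, 0.698, 0.801 and 0.566). Their log2 fold changes lay between -0.49 and 0.20. Hoxc13, a factor of hair and tongue papillae, had 35.3 and 16.2 CPM with BMP4 against 0.15 and 0 CPM without it, at or under the 3-unit floor (adjusted p = 0.0088, lost at 0.0524 to 0.0799).

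Of the genes usually associated with neurons, 4 rose, and 1 of them, Stmn2, was among the 15 largest rises named. Stmn2, which encodes the microtubule regulator stathmin 2, had 171 and 84.8 CPM in BMP4 + inhibitor organoids against 1.55 and 0.50 CPM in inhibitor organoids (5.96 ± 0.36, adjusted p = 0.00177, held). Tubb3, the beta III tubulin, had 107 and 114 CPM against 14.5 and 9.64 CPM (3.11 ± 0.32, adjusted p = 0.00489, held). Map2, a microtubule-associated protein, had 146 and 127 CPM against 23.9 and 19.4 CPM (2.61 ± 0.52, adjusted p = 0.0318), and lost its call in all 4 refits (adjusted p = 0.056 to 0.184). Ngfr, the p75 neurotrophin receptor, also known from basal squamous cells, had 121 and 36.7 CPM with BMP4 against 6.80 and 2.10 CPM without it (3.79 ± 0.64, adjusted p = 0.0198, lost at 0.0567 to 0.125). These 4 were the neural and glial markers called, of 15 listed and 7 tested, and the list summed to 549.6 and 365.7 CPM with BMP4 and 51.27 and 34.48 CPM without it. Other defining markers of neurons and glia were at or near 0: Sox10, Elavl3, Elavl4, S100b and Rbfox3 reached 0.25 CPM at most in the 4 libraries.

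Surface proteins of the Ly6 family included Slurp1, a secreted ligand of nicotinic receptors made by keratinocytes (chr15:74724318-74728034, minus strand). It had 16.2 and 20.6 CPM with BMP4 against 0.30 CPM in each inhibitor library (3.89 ± 0.22, adjusted p = 0.00144, held). Psca, prostate stem cell antigen, had 697 and 504 CPM against 189 and 165 CPM (1.74 ± 0.19, adjusted p = 0.00539), lost without inhibitor replicate 2 (adjusted p = 0.0571). Of 19 genes of the family 3 were higher and none was lower, and the third was Lynx1. Over the 4 refits 1 to 3 were higher, and with the replicate block 4 were higher and 2 lower.

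Among metabolic genes, hypoxia and glycolysis genes fell more often than they rose, with 9 of 37 lower and 1 higher and a median of -0.49. With replicate as a block 19 were lower and 2 higher. Without BMP4 + inhibitor replicate 1 or inhibitor replicate 2 none was lower, without inhibitor replicate 1 there was 1, and without BMP4 + inhibitor replicate 2 there were 13. Car9, a carbonic anhydrase induced by hypoxia, had 1.60 and 3.05 CPM with BMP4 against 17.4 and 41.7 CPM without it (-3.11 ± 0.51, adjusted p = 0.0186), lost without BMP4 + inhibitor replicate 1 or inhibitor replicate 2 (adjusted p = 0.112 and 0.111). Car12 had 29.7 and 67.2 CPM against 301 and 326 CPM (-2.78 ± 0.44, adjusted p = 0.0168, lost at 0.0686 to 0.118). Pfkfb3, a regulator of glycolytic flux, had 32.7 and 48.4 CPM against 100 and 96.3 CPM (-1.28 ± 0.21, adjusted p = 0.0181, lost at 0.0655 to 0.112). Of 25 sterol synthesis genes 4 were lower and none was higher, 2 were lower under median-of-ratios scaling, and 0 to 3 were with 1 library left out.

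Genes of detoxification and retinoid handling were divided. Of 78 xenobiotic, glutathione and NRF2 target genes, 7 were higher and 8 were lower. Over the 4 refits 1 to 14 were higher and 3 to 9 lower, and with the replicate block 15 were higher and 18 lower. Cyp2b10, a cytochrome P450 known from liver as a target of the receptor CAR, had 3.40 and 7.54 CPM in BMP4 + inhibitor organoids against 128 and 138 CPM in inhibitor organoids (-4.45 ± 0.44, adjusted p = 0.0045, held). Gstp3 and Gstp2, copies of a glutathione transferase, both fell and both calls held, but they are close paralogs and reads may have been split between them. Adh7, the retinol and ethanol dehydrogenase of the upper digestive tract, had 8.29 and 9.29 CPM with BMP4 against 87.6 and 78.3 CPM without it (-3.10 ± 0.22, adjusted p = 0.00218, held). Lrat, which esterifies retinol, had 105 and 53.0 CPM against 3.20 and 0.60 CPM (4.86 ± 0.82, adjusted p = 0.0197, lost at 0.0678 to 0.130). Cdo1, cysteine dioxygenase, had 222 and 104 CPM against 0.899 and 4.85 CPM (5.52 ± 0.56, adjusted p = 0.00489, held).

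Of 19 chemokine genes 2 were higher and 2 lower (21.1% called, against 8.41% over all genes). Ccl20, which attracts cells with the receptor CCR6, had 0.10 and 0.999 CPM with BMP4 against 33.0 and 29.0 CPM without it (-4.43 ± 0.29, adjusted p = 0.00183, held). Cytosolic ribosomal protein genes were not called, 0 of 76 with limma, at a median of -0.45, while none was higher and 6 were lower at an unadjusted p below 0.05. Under the block 41 were lower. They summed to 15750 and 24500 CPM with BMP4 and to 23110 and 31180 CPM without it, and replicate 2 was the higher in both groups. Mitochondrial genome transcripts made up 0.414% and 0.655% of the total with BMP4 and 0.657% and 0.684% without it.

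**Figure D4:**
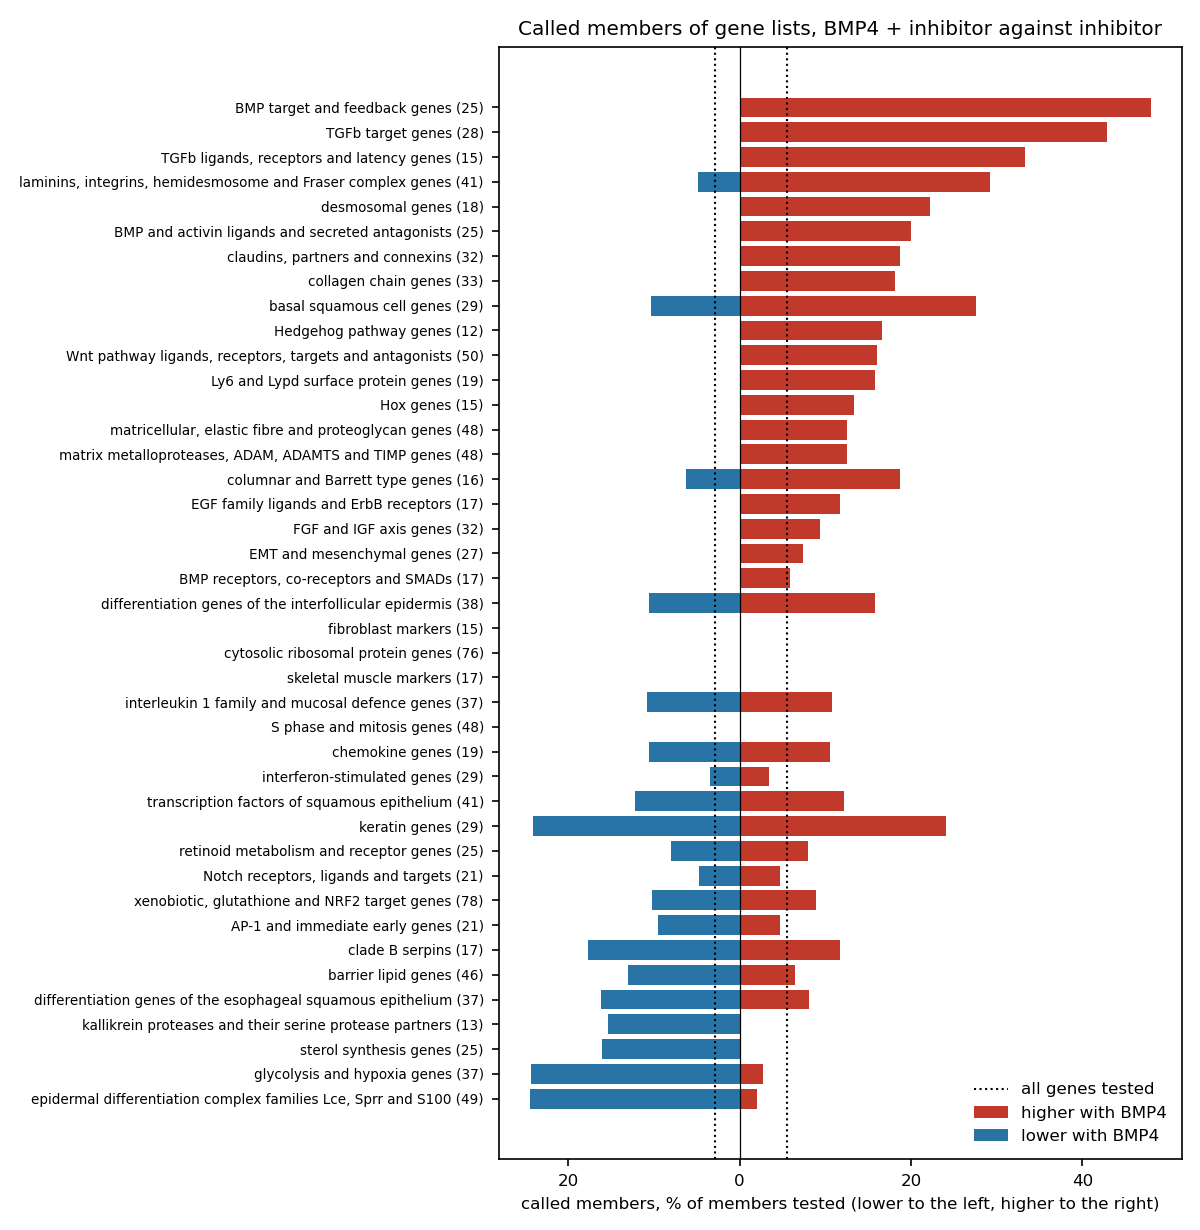
Bars give the share of the tested members of each gene list (number tested in parentheses) that were called higher (right) or lower (left) in BMP4 + inhibitor organoids against inhibitor organoids; dotted lines mark the shares over all genes tested, 5.49% higher and 2.91% lower. BMP target genes (12 of 25) and TGFb target genes (12 of 28) stand at the top and the epidermal differentiation complex families (12 of 49 lower) at the bottom.

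Whether BMP4 acted alike with the inhibitor and with TGFb1 was tested as the difference between both BMP4 effects in the same fit. That difference was positive for 160 genes (0.989%) and negative for 48 (0.297%), and with the replicate block for 689 and 428. These counts depended on single libraries, including those of the TGFb1 groups. Without BMP4 + inhibitor replicate 2, 380 were positive and 222 negative. Without TGFb1 replicate 1, 86 and 7 were, and without any one of the other 6 libraries 0 to 4 were positive and 0 or 1 negative. At most 4 of the positive differences named below can therefore have passed in any of those 6 refits. The comparison shares no library between its 2 BMP4 effects.

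For some genes BMP4 had a large effect with the inhibitor and a smaller or uncalled one with TGFb1. Slurp1 stood at 0.30 and 0.35 CPM in TGFb1 + BMP4 organoids and 0.15 and 0.60 CPM in TGFb1 organoids, so its rise with the inhibitor had no counterpart there (difference 3.93 ± 0.31, adjusted p = 0.018). Frem2 stood at 0.20 and 1.85 CPM with TGFb1 + BMP4 and 0.20 and 0.70 CPM with TGFb1 (5.63 ± 0.64, adjusted p = 0.026). Tgm7 reached 18.1 and 10.1 CPM with TGFb1 + BMP4 against 0.75 and 0.40 CPM with TGFb1. BMP4 raised it by 8.56 ± 0.35 on the log2 scale with the inhibitor. With TGFb1 it raised it by 3.22 ± 0.35, which was also called (adjusted p = 0.0149, difference 5.34 ± 0.49, adjusted p = 0.0197). Dsg1a stood at 1.75 and 1.90 CPM with TGFb1 + BMP4 and at 1.1 and 10.2 CPM with TGFb1 (6.04 ± 0.99, adjusted p = 0.0475).

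For others TGFb1 organoids already differed from inhibitor organoids in the same direction. Of the 5 genes below, all were called in that comparison (adjusted p = 0.000223 to 0.00244), in which 20.0% of all genes were called higher and 20.0% lower. Fibroblast markers summed to 1522 and 7272 CPM with TGFb1 + BMP4 and to 1467 and 5096 CPM with TGFb1. With BMP4 + inhibitor they summed to 171 and 548.7 CPM, and their part in the differences was not tested. Thbs1 had 350 and 343 CPM with TGFb1 + BMP4 and 466 and 498 CPM with TGFb1, both above its level with BMP4 + inhibitor (difference between the BMP4 effects 4.01 ± 0.51, adjusted p = 0.0315). Stmn2 had 235 and 220 CPM with TGFb1 + BMP4 and 155 and 152 CPM with TGFb1 (5.40 ± 0.51, adjusted p = 0.0198). Krt10 had 241 and 162 CPM with TGFb1 + BMP4 and 153 and 89.3 CPM with TGFb1 (6.04 ± 0.75, adjusted p = 0.0313). Serpinb12 was low in both groups with TGFb1, at 0.05 and 0.799 CPM with TGFb1 + BMP4 and at 0.15 and 1.90 CPM with TGFb1 (difference -5.79 ± 0.95, adjusted p = 0.049), as was Ccl20 at 0.15 CPM or below in TGFb1 + BMP4 organoids and 0.25 CPM or below in TGFb1 organoids.

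Mal and Csta1 had BMP4 effects of opposite sign. Mal stood at 908 and 738 CPM with TGFb1 + BMP4 and at 1624 and 1475 CPM with TGFb1, so the BMP4 effect was 2.51 ± 0.20 with the inhibitor and -0.92 ± 0.20 with TGFb1, the second not called (adjusted p = 0.0749, difference 3.43 ± 0.28, adjusted p = 0.018). Csta1 stood at 96.3 and 77.6 CPM with TGFb1 + BMP4 and at 181 and 204 CPM with TGFb1. It rose with BMP4 in organoids given the inhibitor (1.77 ± 0.16) and fell with BMP4 in organoids given TGFb1 (-1.14 ± 0.16, adjusted p = 0.0244, difference 2.92 ± 0.22, adjusted p = 0.0172).

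**Figure D5:**
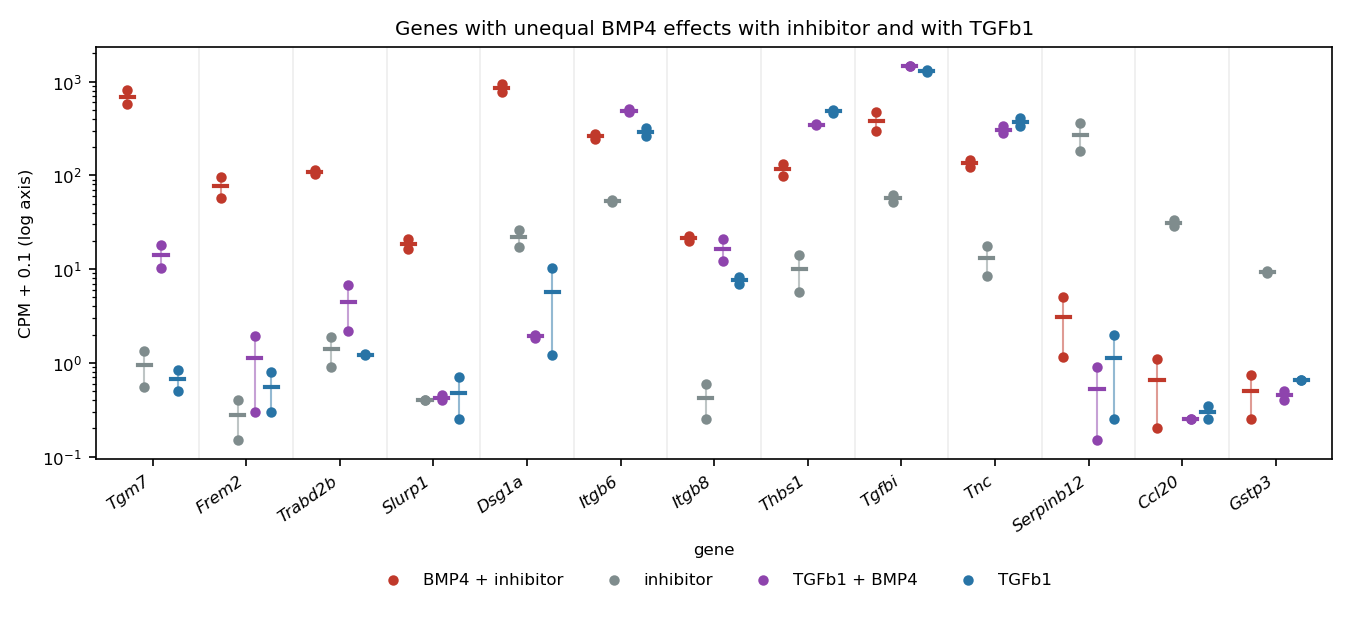
CPM + 0.1 on a log axis for genes whose BMP4 effect differed between inhibitor and TGFb1, 2 libraries per group with a short bar at their mean, BMP4 + inhibitor left of inhibitor and TGFb1 + BMP4 left of TGFb1. Tgm7, Frem2, Trabd2b, Slurp1 and Dsg1a are higher in BMP4 + inhibitor organoids than in the other 3 groups, while Thbs1, Tgfbi and Tnc are higher still in both groups given TGFb1.

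For several BMP target genes and esophageal keratins no difference between the BMP4 effects was called. Smad6 rose with BMP4 by 2.36 ± 0.25 on the log2 scale in organoids given the inhibitor and by 2.36 ± 0.25 in those given TGFb1. Nog, Atoh8, Id1, Id3 and Id4 did not differ in their BMP4 effect by the test (adjusted p = 0.377, 0.645, 0.309, 0.118 and 0.196), although for Id3 the difference of -1.93 passed with the replicate block (adjusted p = 0.0452). Krt4 fell to 323 and 459 CPM in TGFb1 + BMP4 organoids, against 3870 and 5200 CPM in TGFb1 organoids (-3.54 ± 0.31, adjusted p = 0.0116). The difference between its BMP4 effects was 0.60 ± 0.43 (adjusted p = 0.477). Krt15 fell to 70.9 and 64.7 CPM with TGFb1 + BMP4, against 454 and 520 CPM with TGFb1 (-2.83 ± 0.16, adjusted p = 0.00617). For Krt15 the difference of -1.11 ± 0.22 was called with the replicate block only (adjusted p = 0.0769 without it and 0.0304 with it). Barx2 had 6.80 and 8.74 CPM with TGFb1 + BMP4 and 32.0 and 45.5 CPM with TGFb1 (-2.17 ± 0.27, adjusted p = 0.0201), and its difference of -0.84 ± 0.39 was not called (adjusted p = 0.297). A difference that was not called does not show that the effects were equal.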

How the data were processed

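Per the labels' protocols, total RNA went into Ovation Solo RNA-seq libraries, which were read on a NovaSeq instrument. The submitters' processing notes name STAR 2.5.3a, HTSeq, edgeR and the build GRCm38 (mm10), and also Cell Ranger 3.1.0. Whether counting used strand is not given in the sources used here, so overlapping and antisense genes are uncertain.

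The deposited table gives, per gene, whole numbers that are scores rather than raw counts. From the values, each library was scaled to about 20000000 and rounded up (totals 20011215 to 20013233). It also gives CPM values by the authors, which are those numbers set against the library's total, and these CPM values were analysed. Scaling hides the depth. From the steps between low values the 4 compared libraries held an estimated 29100000 to 36600000 reads, and 3 deposited units correspond to 0.15 CPM. This floor covers counting error only. Libraries of 1 group differed by more than sampling noise and were counted separately.

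Here log2(CPM + 1) of the deposited CPM was fitted with limma 3.58.1 (trend, R 4.3.3) by group over 8 libraries, for 16180 genes at 1 CPM or more in 2 or more of 8 libraries. P-values come from this fit and not from the deposited table. The fit has 4 residual degrees of freedom. The procedure was tested on simulated data. Same-numbered libraries deviated together in all 6 pairs of groups (correlations 0.32 to 0.74), while the labels only number the replicates. Values with the replicate number as a block therefore stand beside many of the results that it changes, but not beside all. Alternatives were a pseudocount of 0.1, other filters, median-of-ratios scaling, the compared groups alone, and each library left out.

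Named genes were the 15 largest and 15 smallest fold changes among called genes with 5 CPM or more in the higher group and no overlap between groups, leaving out predicted genes, up to 4 called members of each of 49 gene lists by adjusted p, and a list of BMP, keratin and identity genes. The comparison, its lists and its tests were chosen with earlier results of these data known, so no list is independent evidence. Gene IDs were matched to GENCODE M21 (GRCm38) for 52489 genes, 99.72%. Promoters are from RefSeq (GRCm38.p6). A few of the named genes are not reported here.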

Additional observations from a re-analysis of the deposited data

Results flagged for a closer look

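The genes below were named by the rule, and their BMP4 effect differed between organoids given the inhibitor and organoids given TGFb1 at an adjusted p below 0.05 (limma, 4 groups of 2 libraries). Each value is the difference of log2 fold changes, the BMP4 effect with inhibitor minus the BMP4 effect with TGFb1. Among squamous differentiation and keratin genes it was 6.04 for Krt10, 6.04 for Dsg1a, 5.34 for Tgm7, 3.43 for Mal, 2.92 for Csta1, 2.75 for Krt20, 2.62 for Krt24, 2.15 for Maf and -5.79 for Serpinb12. Among pathway genes it was 2.37 for Bambi, 1.91 for Id2 and 1.84 for Cdkn2b.

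Among adhesion and matrix genes it was 5.63 for Frem2, 4.01 for Thbs1, 3.62 for Tnc, 3.09 for Itgb8, 2.96 for Col7a1, 2.65 for Col4a5, 2.57 for Cldn23, 2.51 for Tgfbi, 1.53 for Itgb6 and 1.21 for Adam12. Among the remaining genes it was 5.40 for Stmn2, 4.39 for Trabd2b, 3.93 for Slurp1, 3.22 for Igfbp3, 2.12 for Psca, 1.5 for Btc, 0.81 for Errfi1, -2.68 for Gstp3 and -4.37 for Ccl20. Groups of 2 libraries are too small to test a single library as far from the others.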

How the results depend on the processing

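The main comparison had 889 genes higher and 471 lower. Without a filter on low values these counts were 509 and 242, with the compared groups alone 400 and 181, with the replicate block 1909 and 1593, and with 1 library left out 137 to 1295 and 51 to 1005. The difference between the BMP4 effects was positive for 160 genes and negative for 48. Without a filter it was so for 20 and 7, with the block for 689 and 428, and with 1 library left out for 0 to 380 and 0 to 222, and with a pseudocount of 0.1 it was negative for 27. Against TGFb1 organoids, 1845 genes were higher and 1934 lower, with the block 2784 and 2980, with the compared groups alone 982 and 1175, and with 1 library left out 739 to 1577 and 828 to 1692. The cause of these shifts was not tested. A stricter filter and median-of-ratios scaling kept all 6 counts within 1.5 times.

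Of the named genes, 5 that were not called changed sign when a library was left out. Over the 4 refits the log2 fold change of Krt18 ran between -0.3 and 0.28, that of Pax9 between -0.07 and 0.33 (-0.04 without BMP4 + inhibitor replicate 1), that of Pitx1 between -0.17 and 0.42, that of Axin2 between -0.03 and 0.37 and that of Cdh1 between -0.01 and 0.18. No named gene changed sign with a pseudocount of 0.1 or with median-of-ratios scaling. The block, the filters and the compared groups alone leave a fold change as it was, so they could not change a sign. With a pseudocount of 0.1, or with median-of-ratios scaling, 8 named genes lost their call and 1 gained one, without a filter 50 lost it, and with the compared groups alone 42 lost it and 3 gained one. With the block 7 gained a call and none lost one. Beyond those named in the report with their blocked value, the block changed only Vim among the named genes (adjusted p = 0.00347 with the block and 0.236 without). With 2 libraries a group, small differences were not detectable.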

Other observations

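Lipid barrier genes fell more often than they rose, 6 of 46 lower and 3 higher, and with 1 library left out 0 to 6 were lower. With the replicate block 15 were lower and 6 higher. Cers4, a ceramide synthase, had 35.3 and 24.6 CPM in BMP4 + inhibitor organoids against 1.20 and 1.45 CPM in inhibitor organoids (3.72 ± 0.45, limma adjusted p = 0.00758, lost at 0.0532 to 0.0673). Of 17 clade B serpin genes 2 were higher and 3 were lower, and with 1 library left out 0 to 3 were higher and 1 to 2 lower. Of 37 interleukin-1 and epithelial defence genes 4 were higher and 4 lower, and with 1 library left out 0 to 4 were higher and 2 to 5 lower. The 4 higher calls were lost without inhibitor replicate 1 and without inhibitor replicate 2. Of 27 genes of epithelial to mesenchymal transition 2 were higher, Snai3 and Ncam1. That was 7.41% called, below the 8.41% over all genes. With the replicate block 8 were higher, as were 11.8% of all genes. Snai3, a Snail family transcription factor, lost its call without BMP4 + inhibitor replicate 1 or inhibitor replicate 2 (adjusted p = 0.0752 and 0.073). Ncam1, the neural cell adhesion molecule, lost it in 3 of the 4 refits (adjusted p = 0.0602 to 0.11), with the compared groups alone (0.0617) and without a filter on low values (0.0704). Vim, the mesenchymal filament vimentin, had 6.85 and 19.5 CPM with BMP4 against 0.999 and 4.10 CPM without it and was not called (adjusted p = 0.236). The fibroblast markers summed to 171 and 548.7 CPM with BMP4 and to 66.21 and 165.4 CPM without it, and their part in the level of Vim was not tested.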
